A study of Mus musculus with 3 samples.

Results

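The 36 genes described here are *Myc*, which encodes the transcription factor MYC, and 35 genes of ribosome biogenesis and cell growth. They were taken as a fixed list of symbols with no cut on a measured value, though the list was chosen with earlier results of these data known. Each of the 36 was found among the 32285 genes counted in every library. Transcripts were counted cell by cell in B cells from the spleen 10 days after immunization with sheep red blood cells (SRBCs), in 1 library of 3′RR-*BCL2* mice, 1 library of Igκ-*BCL2* mice and 1 library of WT mice. In 3′RR-*BCL2* mice a human *BCL2* cassette with its own promoters, randomly integrated, is under a core form of the IgH 3′ regulatory region, while in Igκ-*BCL2* mice the same cassette replaces the Jκ segments of the Igκ locus, and both models have a mixed B6/129 background. The labels give no age or sex, no number of mice per library and no zygosity of the knock-in. They call the cells of both *BCL2* libraries whole tissue cells and those of the WT library sorted B cells, while the methods describe magnetic sorting for all 3. With 1 library per genotype there were no replicates, so no test was made, and anything that differed between the libraries besides genotype cannot be told apart from it.

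MYC is a transcription factor that drives cell growth, and its best-known targets make ribosomes. They include the enzymes that supply nucleotides and polyamines, the box C/D and box H/ACA particles that modify ribosomal RNA, and nucleolar proteins that cut, fold and assemble ribosomal subunits. In the B cell response, *Myc* is known to be induced upon antigen and T cell help, to be silent in most GC B cells and to come back in the few light zone cells selected to return to the dark zone. Plasma cells are known to switch *Myc* off through BLIMP-1.

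Stages were called from marker genes that hold none of the 36, counted in cells thinned to 2000 UMIs (unique molecular identifiers, each standing for 1 captured RNA molecule). Levels are in counts per 1000000 (CPM), the UMIs of a gene per 1000000 UMIs of all cells of the stage, and ratios are between such levels. Brackets hold exact 95% intervals of the Poisson counts, which cover counting error only and not the spread between mice. The 3′RR-*BCL2* library held 159 transitional, 5133 resting, 298 activated, 458 GC non-dividing, 118 GC dividing and 10 plasma cells. The Igκ-*BCL2* library held 215, 5329, 192, 215, 26 and 20 cells of these stages, and the WT library held 380, 8477, 491, 39, 40 and 5. Every WT value in GC cells thus rests on 39 or 40 cells. Median depth was 4806 to 5229 UMIs in resting cells and 6764.5 to 9913 UMIs in GC cells of both kinds. The libraries shared 15 to 24 cell barcodes by pairs, at most 0.341% of the barcodes of either. In GC non-dividing cells T cell markers were at 0 to 1.81 CPM and macrophage and myeloid markers at 0, while erythroid markers were at 36.8, 24.8 and 37.9 CPM in the 3′RR-*BCL2*, Igκ-*BCL2* and WT libraries, against 16.2, 12.4 and 8.08 in resting cells. Heat shock genes stood at 4341 and 6696 CPM in resting cells of the 3′RR-*BCL2* and Igκ-*BCL2* libraries, against 1529 in WT resting cells, and their part in the differences between libraries below was not tested.

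MYC binds the E-box CACGTG, a palindrome that reads the same on both strands. Of the 36 genes, 28 were matched in the RefSeq promoter table of GRCm38.p6, which holds 250 bases before and 50 bases after each start site. The motif was in the window of 7 of these 28 genes (25%), namely *Nop2*, *Pes1*, *Eif4a1*, *Eif5a*, *Mybbp1a*, *Nme1* and *Wdr43*. The same letters were in 8.09% of all 27025 genes of the table and in 12.6% of the 8028 genes with at least 50 UMIs in resting cells of each library. Among genes with a single window the shares were 21.7% (5 of 23) of the list and 11.04% of the 6421 genes counted at that level. Related lists had shares of 22.8% (57 other ribosome assembly factors), 25% (16 genes of nucleotide and polyamine synthesis), 15.4% (13 RNA polymerase I genes), 30.8% (13 genes of the MAX network, MYC's partners and antagonists) and 33.3% (12 translation factors), so the share among the 36 genes was within the range of those lists. A match is a description of these windows, not evidence of binding, and *Myc* itself was not among the genes matched.

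The 250 bases before the start site are shown for 3 genes of different roles that held the motif there, with its letters in capitals. *Nop2*, a methyltransferase of ribosomal RNA, is on the plus strand at chr6:125131633-125131882 with the motif 60 bases before the start. *Eif4a1*, the helicase of translation initiation, is on the minus strand at chr11:69672424-69672673 with the motif 189 bases before it. *Nme1*, a nucleoside diphosphate kinase, is on the minus strand at chr11:93968273-93968522 with the motif 18 bases before it.
Nop2: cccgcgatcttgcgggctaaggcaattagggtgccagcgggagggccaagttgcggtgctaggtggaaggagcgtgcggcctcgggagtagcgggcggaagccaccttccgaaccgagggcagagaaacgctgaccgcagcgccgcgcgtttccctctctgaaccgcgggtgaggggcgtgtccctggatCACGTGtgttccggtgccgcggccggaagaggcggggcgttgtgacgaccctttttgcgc
Eif4a1: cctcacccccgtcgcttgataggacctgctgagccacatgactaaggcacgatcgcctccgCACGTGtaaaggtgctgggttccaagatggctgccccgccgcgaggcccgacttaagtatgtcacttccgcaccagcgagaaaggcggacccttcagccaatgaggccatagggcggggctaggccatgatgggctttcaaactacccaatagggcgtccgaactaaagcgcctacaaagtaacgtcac
Nme1: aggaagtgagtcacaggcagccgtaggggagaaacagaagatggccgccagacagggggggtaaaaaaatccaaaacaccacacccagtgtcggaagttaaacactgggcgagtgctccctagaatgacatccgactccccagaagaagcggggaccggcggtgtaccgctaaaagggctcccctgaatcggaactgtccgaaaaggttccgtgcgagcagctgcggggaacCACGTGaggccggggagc

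The summed level of the 36 genes was highest in activated and dividing cells, and the GC non-dividing cells of the *BCL2* libraries were close to resting cells where those of WT were not. In resting cells the sum was 4638 [4614 to 4662] CPM in the 3′RR-*BCL2* library, 4272 [4248 to 4295] in the Igκ-*BCL2* library and 4690 [4671 to 4709] in the WT library. Transitional cells had 4465, 3995 and 4512 CPM in the 3′RR-*BCL2*, Igκ-*BCL2* and WT libraries. In activated cells the sum was 5780.3 [5672 to 5890], 6163 [6018 to 6309] and 6922 [6829 to 7015] CPM in the 3′RR-*BCL2*, Igκ-*BCL2* and WT libraries, above resting cells in each. GC non-dividing cells had 4887 [4812 to 4963] and 4399 [4297 to 4502] CPM in the 3′RR-*BCL2* and Igκ-*BCL2* libraries, against 6694 [6432 to 6963] in WT. GC dividing cells had 5642 [5505 to 5781] and 6312 [5994 to 6641] CPM in the 3′RR-*BCL2* and Igκ-*BCL2* libraries, against 7655 [7367 to 7952] in WT. Plasma cells had 4799.8, 2517 and 3281 CPM in the 3′RR-*BCL2*, Igκ-*BCL2* and WT libraries, where immunoglobulin transcripts took 36.5, 48.3 and 46.0% of all UMIs.

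**Figure D1:**
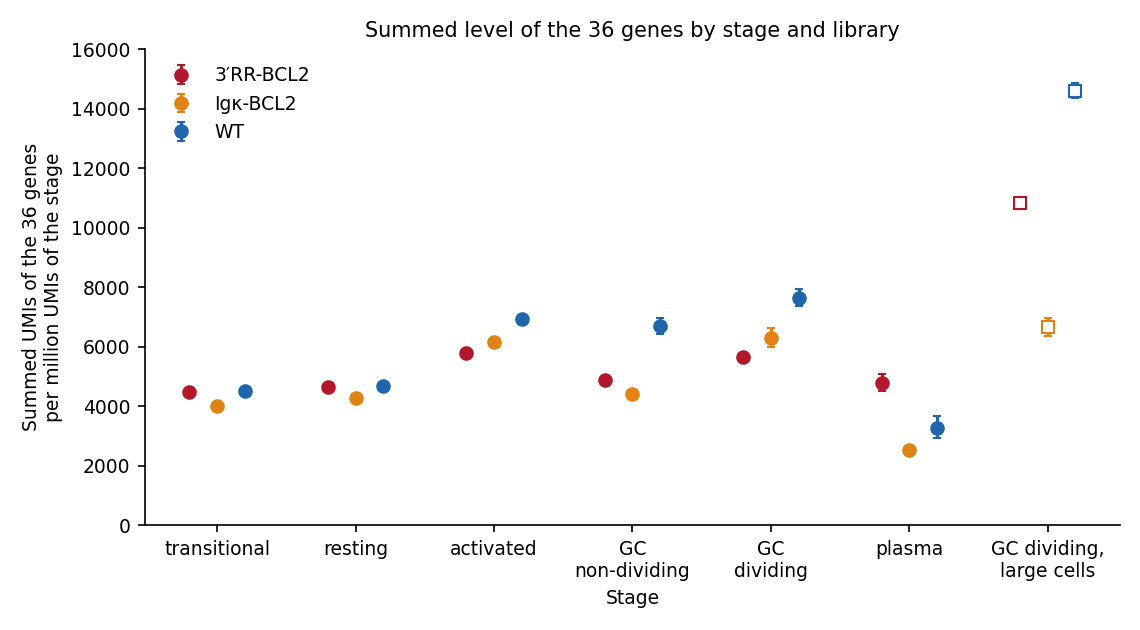
Summed UMIs of the 36 genes per 1000000 UMIs of each stage (CPM, y axis) by stage (x axis) in the 3′RR-*BCL2*, Igκ-*BCL2* and WT libraries, with exact 95% Poisson intervals. Open squares are GC dividing cells above 4500 genes or 20000 UMIs, which the main filter leaves out. WT activated cells and GC cells of both kinds lie at 6694 to 7655 CPM, above the same stages of both *BCL2* libraries.

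*Myc* itself did not follow this sum in GC cells. In resting cells *Myc* was at 194 [189 to 199] CPM in the 3′RR-*BCL2* library, 123 in the Igκ-*BCL2* library and 187 in the WT library. In activated cells it was at 228, 201 and 278 CPM in the 3′RR-*BCL2*, Igκ-*BCL2* and WT libraries, which is 1.18-fold [1.06 to 1.30], 1.64-fold [1.43 to 1.88] and 1.49-fold [1.38 to 1.59] the resting level. In GC non-dividing cells it was at 73.3, 48.9 and 94.8 CPM in the 3′RR-*BCL2*, Igκ-*BCL2* and WT libraries, and in GC dividing cells at 45.6, 38.3 and 83.8. The ratio of GC dividing over resting cells was 0.235 [0.176 to 0.309], 0.312 [0.143 to 0.593] and 0.448 [0.300 to 0.644] in the 3′RR-*BCL2*, Igκ-*BCL2* and WT libraries, so that *Myc* was below its resting level in GC dividing cells of every library. Transitional cells stood between, at 152, 88.4 and 111 CPM. Plasma cells held 13 UMIs of *Myc* in the 3′RR-*BCL2* library, 1 UMI in the Igκ-*BCL2* library and 0 of 92952 UMIs in WT, where 3 counts would be 32.3 CPM and the level was thus at least 5.79-fold lower than in resting cells. Immediate early genes, which respond to handling as well as to antigen, were also lower in GC than in resting cells, at 6385 and 4426 CPM in GC non-dividing and dividing cells of the 3′RR-*BCL2* library, against 9039 in its resting cells. In WT they were at 4362 and 3809 in GC non-dividing and dividing cells, against 6749 in resting cells, and in Igκ-*BCL2* at 6546 and 4094, against 8977. Their part in the *Myc* levels was not tested.

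**Figure D2:**
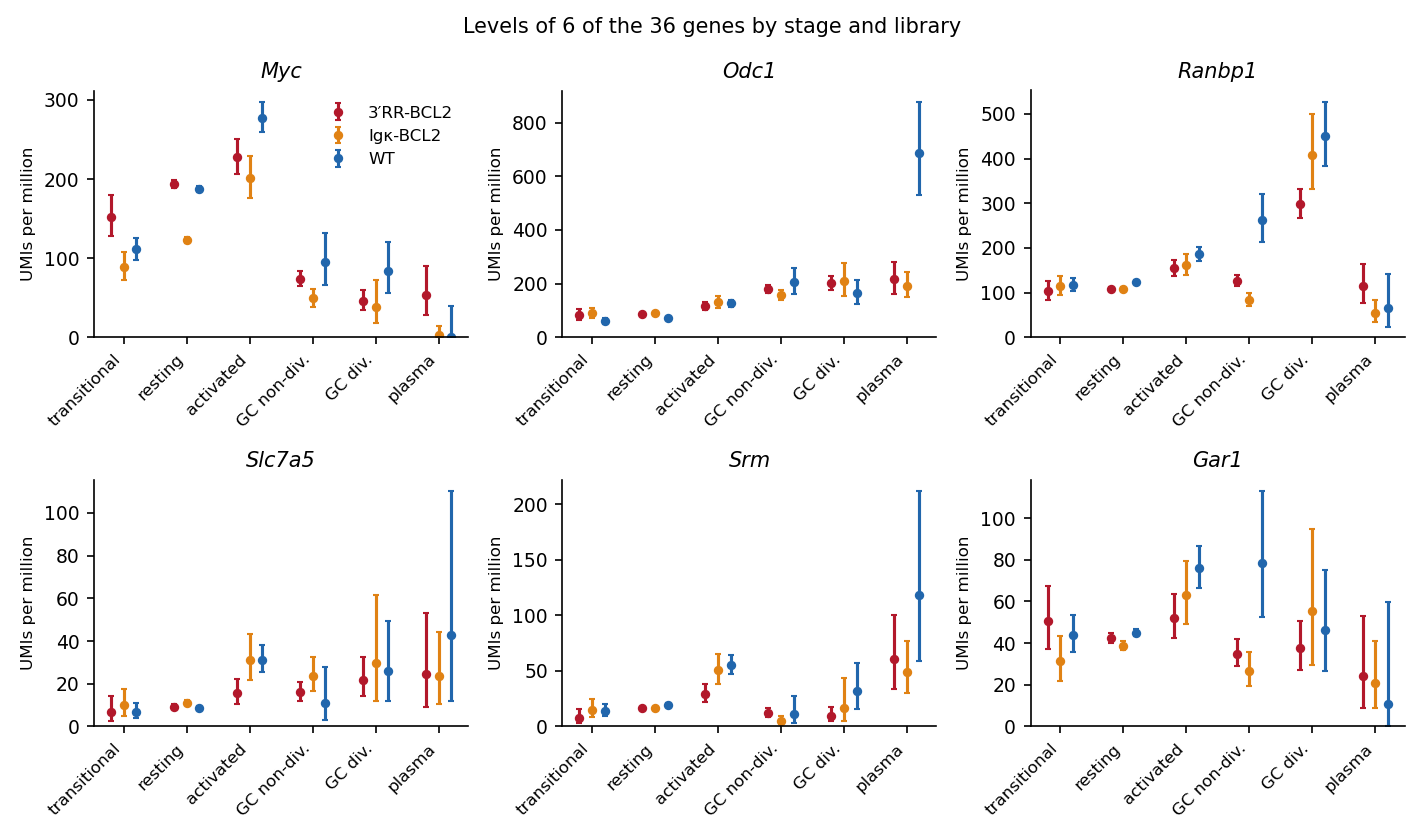
CPM (y axis) of 6 genes by stage (x axis) in the 3′RR-*BCL2*, Igκ-*BCL2* and WT libraries, with exact 95% Poisson intervals; each panel has its own scale. *Myc* is highest in activated cells and under 100 CPM in every GC point, while *Ranbp1* is highest in GC dividing cells at 298 to 451 CPM.

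At the level of single cells, a UMI of *Myc* was found in 25.4, 15.2 and 24.6% of resting cells thinned to 2000 UMIs in the 3′RR-*BCL2*, Igκ-*BCL2* and WT libraries. The share was 33.2, 21.4 and 34.0% of activated cells, 11.6, 9.30 and 20.5% of GC non-dividing cells and 11.9, 3.85 and 10% of GC dividing cells of these libraries. With 0 or 1 UMI in most cells, a cell without a UMI is not a cell without *Myc*, and the part of free RNA in these shares was not tested. Among activated cells those with a *Myc* UMI held 1.23, 1.27 and 1.25 times the mean sum of the other 35 genes in the 3′RR-*BCL2*, Igκ-*BCL2* and WT libraries. In resting cells the ratio was 1.06, 1.14 and 1.12, and in GC non-dividing cells it was 0.999 [0.908 to 1.10], 0.946 [0.803 to 1.11] and 0.974 [0.772 to 1.22], where cells with and without a *Myc* UMI could not be told apart within counting error. In GC dividing cells 14, 1 and 4 cells had a *Myc* UMI, and the ratio of 1.75 in WT rested on those 4 cells and was 0.636 when cells were thinned to 1000 UMIs.

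Activated cells were compared with resting cells, the question being which of the genes were higher where activation markers had come up. The ratio was above 1 for 34, 36 and 36 of the 36 genes in the 3′RR-*BCL2*, Igκ-*BCL2* and WT libraries, against 50.9, 47.6 and 49.1% of all genes. The interval lay above 1 for 27, 29 and 35 of the 36 genes, against 8.45, 7.45 and 12.03% of all genes. The median log2 ratio was 0.41, 0.57 and 0.62, against 0.03, 0.01 and 0.01 over all genes with at least 50 UMIs in both stages together. Most of these differences were small: 1, 2 and 3 of the 36 genes reached a 2-fold higher level, against 1.35, 2.1 and 1.41% of all genes in the 3′RR-*BCL2*, Igκ-*BCL2* and WT libraries. At least 2-fold lower were 1, 0 and 0 genes, against 3.39, 6.18 and 2.81% of all genes. Marker minimums matter here: of the activated cells, 206 of 298, 134 of 192 and 330 of 491 were at the minimum of 5 markers, and with 6 markers required the counts at 2-fold were 5, 4 and 9, while with stages called in cells thinned to 4000 UMIs they were 0, 0 and 1.

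*Slc7a5* and *Srm* had the 2 highest ratios in the Igκ-*BCL2* and WT libraries, while *Polr1b* was highest in the 3′RR-*BCL2* library, ahead of *Srm*, *Nop16* and *Slc7a5*. *Slc7a5*, the light chain of a transporter of large neutral amino acids, was at 15.4, 31.1 and 31.3 CPM in activated cells of the 3′RR-*BCL2*, Igκ-*BCL2* and WT libraries, against 9.22, 11.1 and 8.53 in resting cells. Its ratio was 1.67 [1.10 to 2.46], 2.79 [1.91 to 3.96] and 3.67 [2.91 to 4.60]. Its heavy chain partner *Slc3a2* hardly differed, with 162, 126 and 143 CPM in activated cells of the 3′RR-*BCL2*, Igκ-*BCL2* and WT libraries, against 142, 120 and 122 in resting cells. *Srm*, spermidine synthase, was at 29.3, 50.6 and 55.5 CPM in activated cells of the 3′RR-*BCL2*, Igκ-*BCL2* and WT libraries, against 16.2, 16.2 and 19.5 in resting cells, with ratios of 1.81, 3.13 and 2.84. *Odc1*, ornithine decarboxylase, which makes the first polyamine, was at 117, 130 and 126 CPM in activated cells of the 3′RR-*BCL2*, Igκ-*BCL2* and WT libraries, against 87.8, 88.9 and 69.7 in resting cells. The *Odc1* ratios were 1.33, 1.46 and 1.80, close to the median of the list in both *BCL2* libraries. *Cad*, which starts pyrimidine synthesis, had 8, 16 and 40 UMIs in activated cells and ratios of 0.489, 1.99 and 1.45, so that its direction was not the same in all libraries.

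Most nucleolar genes were also higher. *Nop16*, of the large subunit pathway, had ratios of 1.80 [1.34 to 2.37], 1.69 [1.10 to 2.50] and 2.53 [2.07 to 3.07] in activated over resting cells of the 3′RR-*BCL2*, Igκ-*BCL2* and WT libraries. *Nolc1*, a chaperone of small nucleolar particles, was at 116, 100 and 148 CPM in activated cells of these libraries, against 73.0, 66.8 and 77.1 in resting cells. *Ncl*, nucleolin, was at 978, 1047 and 1082 CPM in activated cells, against 696, 673 and 669 in resting cells. *Npm1*, nucleophosmin, differed less, with 778, 801 and 980.2 CPM in activated cells of the 3′RR-*BCL2*, Igκ-*BCL2* and WT libraries against 751, 637 and 775 in resting cells. The core proteins of the box C/D particle, *Fbl*, *Nop56* and *Nop58*, and of the box H/ACA particle, *Dkc1*, *Nhp2* and *Gar1*, were all above their resting level in every library. *Nop58* was at 150 CPM in WT activated cells, against 83.6 in WT resting cells. *Nhp2* was at 74.5, 89.6 and 92.4 CPM in activated cells against 55.6, 49.9 and 55.8 in resting cells of the 3′RR-*BCL2*, Igκ-*BCL2* and WT libraries. *Polr1b*, the second largest subunit of RNA polymerase I, had 25, 9 and 51 UMIs in activated cells and ratios of 2.05, 1.18 and 1.97. At the low end in WT were *Wdr12* (1.12), *Nme2* (1.16), *Slc3a2* (1.17) and *Eif4ebp1*, an inhibitor of cap-dependent translation (1.25).

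**Figure D3:**
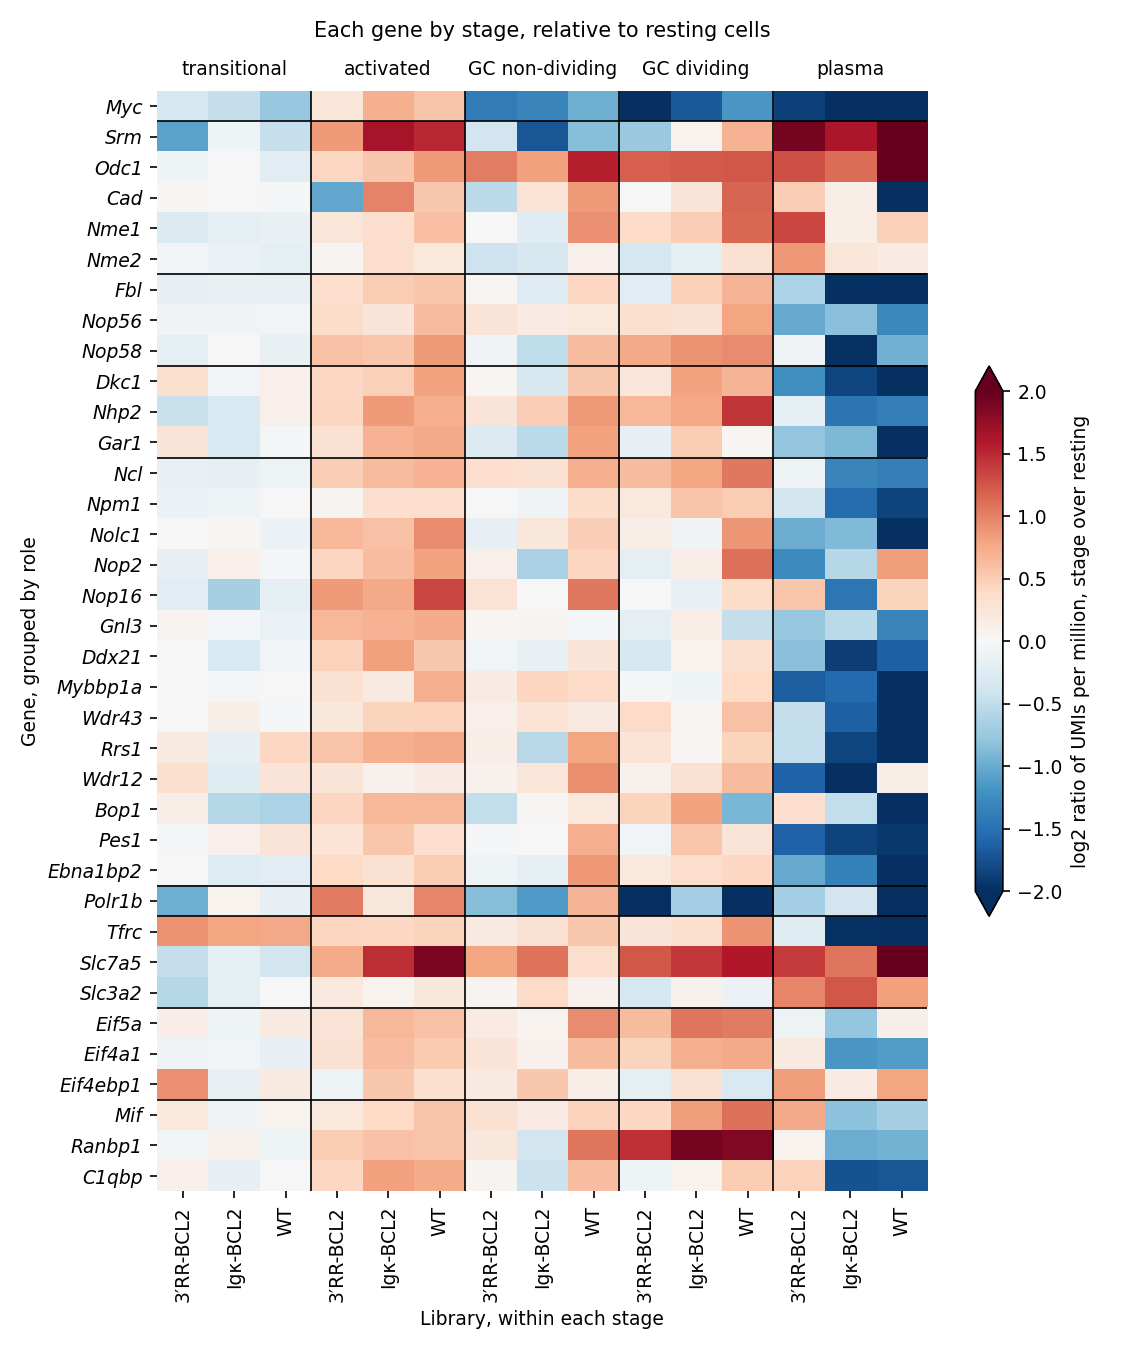
Log2 ratio of CPM over resting cells (colour, cut at −2 and 2) for the 36 genes (rows, grouped by role) in each stage and library (columns). Activated columns are above resting for nearly all genes, GC columns are mixed with *Myc* low throughout, and plasma columns are mostly low in Igκ-*BCL2* and WT cells, with *Srm*, *Odc1*, *Slc7a5* and *Slc3a2* high in every library.

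Genes of the same pathways outside the 36 were read from lists. Of 63 other ribosome assembly factors, 60, 51 and 62 were above their resting level in activated cells of the 3′RR-*BCL2*, Igκ-*BCL2* and WT libraries, with median log2 ratios of 0.29, 0.39 and 0.49 and 0, 2 and 1 genes at 2-fold. The highest were *Rrp9* (0.97), *Nifk* (1.12) and *Rrp1b* (1.14) in the 3′RR-*BCL2*, Igκ-*BCL2* and WT libraries. Of 14 other RNA polymerase I genes counted, 10, 10 and 14 were above their resting level. Of 19 genes of nucleotide and polyamine synthesis, 11, 14 and 17 were above it, with *Ctps*, which makes CTP, at a log2 ratio of 1.24 in 3′RR-*BCL2* cells and 1.16 in WT cells. The 10 counted genes of the MAX network had medians of 0.02, −0.33 and −0.02, with 0 genes at 2-fold in each library. The 85 counted genes of cytoplasmic ribosomal proteins had medians of −0.07, −0.03 and −0.05. In this comparison of activated with resting cells their transcripts were thus not higher, while those of the assembly factors were.

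The summed level of the listed genes without *Myc* was also higher in cells with many of the 17 activation markers than in cells with none, though not at each step. Resting and activated cells with 0 markers held a mean of 8.23, 7.46 and 7.93 UMIs of these genes per 2000 UMIs in the 3′RR-*BCL2*, Igκ-*BCL2* and WT libraries. The mean was 8.85, 8.43 and 8.57 with 3 markers, 9.79, 9.86 and 11.5 with 5 markers, 12.5, 9.18 [8.25 to 10.2] and 12.6 with 6 markers and 16.4 [14.9 to 17.9], 16.5 [14.8 to 18.4] and 14.2 [13.1 to 15.4] with 7 or more markers, which 28, 20 and 42 cells had. *Myc* was at 130, 82.1 and 140 CPM with 0 markers. With 7 or more markers it was at 357, 100 and 667 CPM in the 3′RR-*BCL2*, Igκ-*BCL2* and WT libraries, from 20, 4 and 56 UMIs. Of every 2000 UMIs, ribosomal proteins took 544, 499 and 533 in cells with 0 markers, 501, 472 and 503 in cells with 5 markers and 511, 535 and 491 in cells with 7 or more markers of the 3′RR-*BCL2*, Igκ-*BCL2* and WT libraries.

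**Figure D4:**
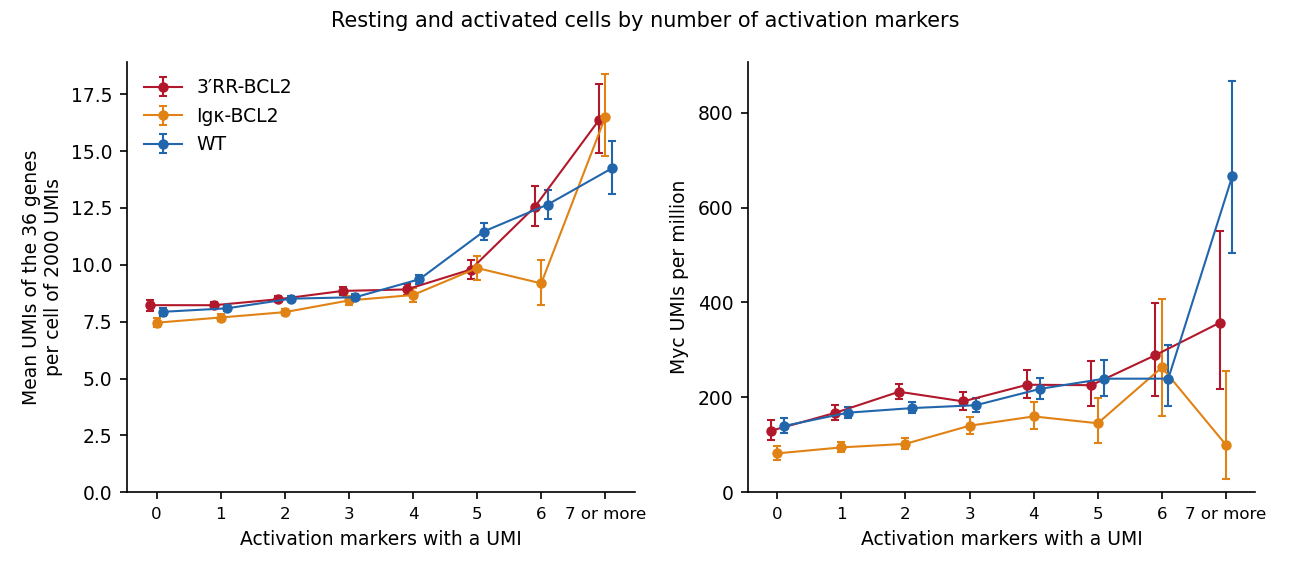
Mean UMIs of the listed genes without *Myc* per cell of 2000 UMIs (left) and *Myc* CPM (right) by the number of activation markers with a UMI (x axis) in resting and activated cells of each library, with exact 95% Poisson intervals. The mean sum is 7.46 to 8.23 with 0 markers and 14.2 to 16.5 with 7 or more.

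A small set of cells had far higher sums than the rest. The 99th percentile of the sum in WT resting cells was 33 UMIs per 2000, and 3.36, 3.13 and 5.70% of activated cells exceeded it in the 3′RR-*BCL2*, Igκ-*BCL2* and WT libraries, against 0.779, 0.657 and 0.956% of resting cells. Together these were 50 of 5431, 41 of 5521 and 109 of 8968 resting and activated cells. Without them the median log2 ratio of activated over resting cells was 0.45 in WT, with 2 genes at 2-fold. The sum of the listed genes without *Myc* chose these cells, after the data were seen. The levels of the genes in that sum are thus only described. *Myc* did not enter the choice, so its ratio cannot be set directly against theirs. *Srm* stood 16.9, 16.9 and 13.1 times and *Mif* 8.56, 7.73 and 8.47 times above all other resting and activated cells in the 3′RR-*BCL2*, Igκ-*BCL2* and WT libraries. *Myc* stood 1.63, 2.40 and 1.77 times above. Of the 27 genes of the list with enough UMIs to be ranked, *Myc* had the lowest ratio in the 3′RR-*BCL2* and WT libraries and *Slc3a2*, at 2.18, in the Igκ-*BCL2* library. Genes outside the list did not enter the choice either. Other assembly factors were at 7771, 8071 and 7943 CPM in these cells of the 3′RR-*BCL2*, Igκ-*BCL2* and WT libraries, against 2550.1, 2629 and 2639 in the others. *Ccnd2*, cyclin D2, which lets B cells enter the cycle and was 1 of the 17 activation markers, was at 377, 439 and 428 CPM against 38.3, 28.3 and 54.9, and *Cd86*, a costimulatory ligand, at 73.1, 114 and 75.9 against 137, 128 and 129. Immediate early genes were lower, at 4876, 4515 and 3424 CPM in these cells against 9092, 9059.7 and 6836 in the others. Heat shock genes were at 6939, 6826 and 4291 CPM in these cells of the 3′RR-*BCL2*, Igκ-*BCL2* and WT libraries, against 4303, 6680 and 1499 in the others. Ribosomal proteins took 30.6, 29.9 and 29.3% of their UMIs, against 27.0, 25.6 and 26.6%. The part of these genes and of depth in the high sums was not tested. Their median depth was 7773, 8084 and 7438 UMIs, against 5231, 4807 and 4998. Among 994 genes ranked by their lowest ratio over the libraries, *Ccnd2*, *AI506816*, *Ppp1r14b*, *Pa2g4* and *Ybx3* led outside the list, and *Ets1*, *Macf1* and *H2-Ob* were among the lowest. *Mki67*, a transcript of dividing cells, was at 2.36, 0 and 1.08 CPM in these cells of the 3′RR-*BCL2*, Igκ-*BCL2* and WT libraries. Doublets were not called among them.

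In GC non-dividing cells the picture depended on the library. The median log2 ratio over resting cells was 0.06 in 3′RR-*BCL2* cells and 0.04 in Igκ-*BCL2* cells, with 23 and 20 of 36 genes above 1, and it was 0.56 in WT cells, with 33 of 36 above 1. The medians over all genes were 0.02, 0.00 and 0.07 in the 3′RR-*BCL2*, Igκ-*BCL2* and WT libraries, and 50.6, 48.4 and 46.6% of all genes were above 1. Counts at 2-fold were 1, 1 and 3 genes, against 6.28, 6.62 and 11.6% of all genes, and at least 2-fold lower were 1, 3 and 0 genes, against 8.87, 10.8 and 23.6%. *Odc1* had the highest ratio in 3′RR-*BCL2* and WT cells and the second highest in Igκ-*BCL2* cells, with 179, 157 and 206 CPM in GC non-dividing cells of the 3′RR-*BCL2*, Igκ-*BCL2* and WT libraries, against 87.8, 88.9 and 69.7 in resting cells. Its ratio was 2.04 [1.86 to 2.23], 1.77 [1.55 to 2.01] and 2.95 [2.32 to 3.71], and no interval reached 1. *Slc7a5* had ratios of 1.73, 2.11 and 1.27, the last from 4 UMIs. *Ncl* was at 883, 835 and 1113 CPM against 696, 673 and 669. *Srm*, among the highest in activated cells, was below its resting level here, at 12.4, 4.95 and 10.8 CPM in GC non-dividing cells of the 3′RR-*BCL2*, Igκ-*BCL2* and WT libraries, against 16.2, 16.2 and 19.5 in resting cells, from 41, 8 and 4 UMIs.

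Set against WT, most of the genes were lower in GC non-dividing cells of both *BCL2* libraries. Of the genes with at least 50 UMIs over both libraries, 28 of 31 were lower in 3′RR-*BCL2* than in WT and 25 of 29 were lower in Igκ-*BCL2* than in WT. Higher were 3 and 4, against 48.6 and 52.3% of all genes. Median log2 ratios were −0.58 and −0.72, against −0.06 and 0.00 over all genes. At least 1.5-fold lower were 13 of 31 and 15 of 29 genes, against 12.4 and 12.7% of all genes, and 0 genes were at least 1.5-fold higher in either, against 13 and 15.1% of all genes. The interval lay below 1 for 17 genes in each, against 10.8 and 13.8% of all genes. Both comparisons use the same 39 WT cells, so they are not independent of each other.

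*Ranbp1*, a cofactor of the GTPase Ran in nuclear transport, was at 126 and 84.2 CPM in GC non-dividing cells of the 3′RR-*BCL2* and Igκ-*BCL2* libraries, against 263 in WT. Its ratios to WT were 0.479 [0.383 to 0.604] and 0.321 [0.245 to 0.420]. *Gar1*, of the box H/ACA particle, was at 35.0 and 26.6 CPM in the 3′RR-*BCL2* and Igκ-*BCL2* libraries, against 78.5 in WT. *Nme1* was at 134 and 92.3 CPM in the 3′RR-*BCL2* and Igκ-*BCL2* libraries, against 263 in WT, with ratios of 0.510 and 0.351. *Nme1* and its neighbour *Nme2* are near-identical copies, and reads may have been split between them. *Eif5a*, the translation factor that carries hypusine, was at 341 and 275 CPM in the 3′RR-*BCL2* and Igκ-*BCL2* libraries, against 609 in WT. *Ebna1bp2* and *Wdr12*, both of large subunit assembly, were at 45.9 and 26.2 CPM in 3′RR-*BCL2* cells and 46.4 and 32.8 in Igκ-*BCL2* cells, against 94.8 and 56.9 in WT cells. The genes at the other end were *Slc3a2*, with ratios of 1.14 [0.850 to 1.57] and 1.21 [0.890 to 1.69], *Nop56*, with 1.10 and 1.09, and *Wdr43* of the small subunit processome, with 0.976 and 1.18. *Gnl3*, nucleostemin, was level, at 183 and 181 CPM in the 3′RR-*BCL2* and Igκ-*BCL2* libraries, against 187 in WT.

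**Figure D5:**
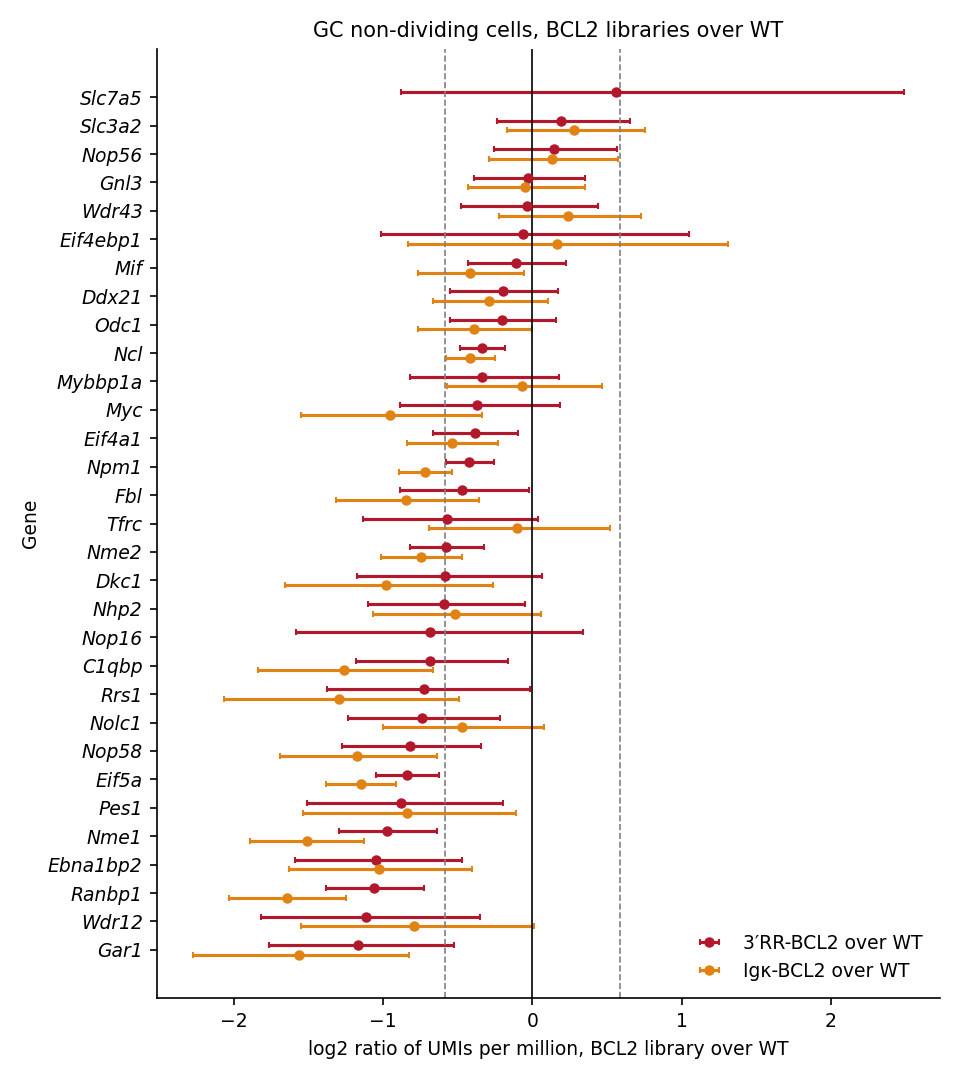
Log2 ratio of CPM (x axis) of 3′RR-*BCL2* over WT and of Igκ-*BCL2* over WT in GC non-dividing cells for each gene with at least 50 UMIs over both libraries (y axis), with exact 95% intervals; dashed lines are at 1.5-fold. Most points lie left of 0, down to *Gar1* and *Ranbp1*, and the interval is below 1 for 17 genes in each comparison, against 10.8 and 13.8% of all genes.

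The summed CPM was also lower than in WT in subsets of the GC non-dividing cells. With 0 of the dividing markers the sum of the 36 genes was 4833 and 4461 CPM in 321 and 153 cells of the 3′RR-*BCL2* and Igκ-*BCL2* libraries, against 6937 in 24 WT cells. With 1 dividing marker it was 5010 and 4245 CPM in 137 and 62 cells of the 3′RR-*BCL2* and Igκ-*BCL2* libraries, against 6239 in 15 WT cells. Per cell thinned to 2000 UMIs, sums were taken without *Myc*. The mean of that sum with 1 marker was 9.60 [9.09 to 10.1] and 8.63 [7.91 to 9.39] in the 3′RR-*BCL2* and Igκ-*BCL2* libraries, against 10.3 [8.77 to 12.1] in WT, where the intervals overlap. With 0 markers it was 9.35 [9.02 to 9.69] and 8.92 [8.45 to 9.40], against 13.9 [12.4 to 15.4]. In cells of 2000 to 8000 UMIs the sum of the 36 genes was 4418 and 4266 CPM in 287 and 125 cells of the 3′RR-*BCL2* and Igκ-*BCL2* libraries, against 5524 [5005 to 6082] in 15 WT cells. In cells of 8000 to 20000 UMIs it was 5231 and 4485 CPM in 171 and 90 cells of those libraries, against 6992 [6693 to 7301] in 24 WT cells. GC markers themselves were at 2326 and 2202 CPM in the 3′RR-*BCL2* and Igκ-*BCL2* libraries, against 2637 in WT, and dividing markers at 212 and 187, against 314. Other assembly factors were lower too, with 18 of 56 and 14 of 44 at least 1.5-fold below WT, against 12.4 and 12.7% of all genes. Their medians were −0.40 and −0.29, with *Rpf2* lowest at −1.71 in each. Cytoplasmic ribosomal proteins had medians of 0.04 and −0.10.

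GC dividing cells had median log2 ratios over resting cells of 0.18, 0.41 and 0.69 in the 3′RR-*BCL2*, Igκ-*BCL2* and WT libraries, against 0.03, 0.04 and 0.03 over all genes. At 2-fold were 3, 4 and 10 of 36 genes, against 12.6, 14.3 and 14.2% of all genes, so the counts in the *BCL2* libraries were no larger than the background and the WT count was. At least 2-fold lower were 2, 1 and 2 genes, against 15.9, 27.8 and 26.4%. *Ranbp1* was highest in each library, at 298, 409 and 451 CPM in GC dividing cells of the 3′RR-*BCL2*, Igκ-*BCL2* and WT libraries, against 108, 108 and 125 in resting cells. Its ratio was 2.76 [2.46 to 3.08], 3.78 [3.05 to 4.63] and 3.62 [3.07 to 4.24], with GC non-dividing cells at 126, 84.2 and 263 CPM. *Slc7a5* had ratios of 2.37, 2.68 and 3.05 from 25, 7 and 9 UMIs, and *Odc1* of 2.29, 2.35 and 2.36. *Eif5a* was at 470, 549 and 653 CPM in GC dividing cells of the 3′RR-*BCL2*, Igκ-*BCL2* and WT libraries, against 302, 262 and 317 in resting cells. *Nhp2* (2.69), *Nme1* (2.21) and *Mif*, a cytokine gene (2.13), were past 2-fold in WT. *Myc*, given above, was below its resting level in every library, and *Polr1b* had 1, 1 and 0 UMIs. The WT count of 10 was 4 with 1 marker more required and 6 without the 3 WT cells above the limit of 33. Of the nucleotide and polyamine list, 6, 6 and 7 of 19 genes were at 2-fold, with medians of 0.72, 0.81 and 0.89. *Azin1*, *Umps* and *Ctps* were highest in the 3′RR-*BCL2*, Igκ-*BCL2* and WT libraries, and *Impdh1* was lowest in each.

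Against WT, 25 of 27 genes were lower in GC dividing cells of 3′RR-*BCL2* mice and 18 of 21 in those of Igκ-*BCL2* mice. Higher were 2 and 3, against 55.7 and 51.8% of all genes. The medians were −0.48 and −0.31, against 0.04 and 0.02 over all genes. At least 1.5-fold lower were 10 and 6 genes, against 5.84 and 7.53% of all genes, and 0 genes were at least 1.5-fold higher, against 11.7 and 9.53%. *Fbl*, the methyltransferase of the box C/D particle, was at 86.7 and 132 CPM in the 3′RR-*BCL2* and Igκ-*BCL2* libraries, against 173 in WT. *Nolc1* was at 79.7 and 63.8, against 142, and *Odc1* at 201 and 209, against 165. Without the 3 WT cells above the limit of 33, the counts at 1.5-fold lower were 4 and 2. In GC dividing cells of 2000 to 8000 UMIs the sum was 5279 and 5853 CPM in the 3′RR-*BCL2* and Igκ-*BCL2* libraries, against 8109 in WT, and in those of 8000 to 20000 UMIs it was 5723 and 6478, against 7462. Both comparisons again use the same 40 WT cells.

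GC dividing cells above the upper limits of the filter held more of these transcripts than those within, in the 3′RR-*BCL2* and WT libraries. Resting cells above the limits did so in every library, so the difference was not particular to GC dividing cells. The upper limits of 4500 genes and 20000 UMIs left out 47, 9 and 23 GC dividing cells of the 3′RR-*BCL2*, Igκ-*BCL2* and WT libraries that met the other conditions, with median depths of 28680, 25544 and 34397 UMIs; these cells were looked at after the effect of the limits was seen. Their sum was 10834 [10667 to 11002], 6663 [6359 to 6978] and 14605 [14350 to 14863] CPM in the 3′RR-*BCL2*, Igκ-*BCL2* and WT libraries, against 5642, 6312 and 7655 within the limits, where the intervals of the Igκ-*BCL2* library overlap. At 2-fold over resting cells were 21, 7 and 25 of 36 genes, against 14.7, 14.2 and 15.3% of all genes, and the median log2 ratio was 1.18, 0.34 and 1.51. *Ranbp1* was at 668, 410 and 934 CPM in these cells of the 3′RR-*BCL2*, Igκ-*BCL2* and WT libraries, against 108, 108 and 125 in resting cells. *Mif* was at 678, 355 and 1015 CPM, against 176, 157 and 171. *Srm* was at 61.3, 22.2 and 111 CPM from 91, 6 and 95 UMIs, against 16.2, 16.2 and 19.5. *Myc* was at 71.4, 85.0 and 92.5 CPM against 194, 123 and 187, with ratios of 0.369 [0.301 to 0.447], 0.692 [0.438 to 1.04] and 0.494 [0.391 to 0.617]. Thinned to 2000 UMIs, these cells had a median sum without *Myc* of 18, 12 and 25 UMIs, against 10, 11 and 13.5 within the limits. No doublet caller was run. Resting markers were at 712, 643 and 494 CPM in the large cells and at 1212, 830 and 1266 in GC dividing cells within the limits, against 5908, 6139 and 5930 in resting cells. With a looser filter that kept such cells, 11, 4 and 23 of 36 genes were at 2-fold in GC dividing cells, against 13.6, 13.1 and 14.3% of all genes. Dividing cells with fewer than 2 of the GC markers above the same limits had 10124, 14594 and 13304 CPM, in 14, 10 and 30 cells. Resting cells above these limits had 6051, 7642 and 8943 CPM in 42, 22 and 38 cells of the 3′RR-*BCL2*, Igκ-*BCL2* and WT libraries, against 4638, 4272 and 4690 within them. The part of depth in the levels of large cells was not tested.

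Plasma cells were few, 10, 20 and 5 in the 3′RR-*BCL2*, Igκ-*BCL2* and WT libraries, and were taken without the upper limits. At least 2-fold lower than resting cells were 8, 18 and 22 of 36 genes, against 47, 58.9 and 64.5% of all genes, and at least 2-fold higher were 4, 4 and 3, against 6.89, 4.36 and 7.98%. The higher ones were *Srm*, *Odc1* and *Slc7a5* in each library, with *Nme1* in 3′RR-*BCL2* and *Slc3a2* in Igκ-*BCL2* cells. *Srm* was at 61.0, 49.4 and 118 CPM in plasma cells of the 3′RR-*BCL2*, Igκ-*BCL2* and WT libraries, against 16.2, 16.2 and 19.5 in resting cells, from 15, 19 and 11 UMIs. *Odc1* was at 216, 192 and 689 CPM, against 87.8, 88.9 and 69.7. *Slc3a2* was at 281, 283 and 215 CPM, against 142, 120 and 122, with ratios of 1.97 [1.53 to 2.50], 2.35 [1.93 to 2.85] and 1.76 [1.08 to 2.73], and *Slc7a5* had ratios of 2.65, 2.10 and 5.05 from 6, 9 and 4 UMIs. The interval of *Slc7a5* reached below 1 in both *BCL2* libraries. The median log2 ratio over resting cells was −0.11, −1.04 and −1.10, against −0.54, −0.99 and −0.35 over all genes. Only 22.8, 14.7 and 18.4% of all genes were above their resting level. Among the many lower genes were nucleolar ones such as *Npm1*, at 582, 218 and 215 CPM in plasma cells of the 3′RR-*BCL2*, Igκ-*BCL2* and WT libraries, against 751, 637 and 775 in resting cells. *Fbl* was at 65.1, 18.2 and 21.5 CPM, against 101, 95.2 and 108. Counted against totals without immunoglobulin, ribosomal protein and mitochondrial genes, 11, 6 and 8 genes of the 3′RR-*BCL2*, Igκ-*BCL2* and WT libraries were at 2-fold, but this change of totals raises the plasma ratio of every gene alike, so nothing is read from it about the 36. Over both libraries 9 genes of 3′RR-*BCL2* plasma cells had 50 UMIs with WT, of which 6 were at least 1.5-fold higher, against 35% of all genes, and 1 lower, against 14.5%. In the Igκ-*BCL2* library these were 1 and 3 of 8 genes, against 17 and 19.8%.

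Transitional cells, the newly arrived B cells, differed little from resting cells. Their median log2 ratio was −0.04, −0.09 and −0.05, against 0.11, 0.09 and 0.06 over all genes in the 3′RR-*BCL2*, Igκ-*BCL2* and WT libraries. At 2-fold higher were 0, 0 and 0 genes, against 3.84, 2.48 and 2.22% of all genes, and at 2-fold lower 1, 0 and 0, against 6.57, 5.6 and 4.62%. *Srm* in 3′RR-*BCL2* cells was the 1 lower gene, at 0.478 [0.191 to 0.991] of the resting level. *Tfrc*, the transferrin receptor, had the highest ratio in Igκ-*BCL2* and WT cells and was second to *Eif4ebp1* (1.88) in 3′RR-*BCL2* cells. It was at 90.4, 106 and 95.1 CPM in transitional cells of the 3′RR-*BCL2*, Igκ-*BCL2* and WT libraries, against 48.3, 61.3 and 56.1 in resting cells, and its ratios of 1.87 [1.48 to 2.34], 1.73 [1.43 to 2.09] and 1.70 [1.47 to 1.95] were larger than those of 1.34, 1.33 and 1.37 in activated cells. Compared with WT, 1 gene was at least 1.5-fold higher in transitional 3′RR-*BCL2* cells (4.26% of all genes) and 0 lower (5.69%), while 0 were higher (6.54%) and 2 lower (5.44%) in Igκ-*BCL2* cells.

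Before activation most of the genes were below WT, by a small margin. In resting cells of either *BCL2* library 26 of 36 genes were below WT and 10 above. Median log2 ratios were −0.07 (3′RR-*BCL2*) and −0.12 (Igκ-*BCL2*), against −0.07 and 0.02 over all genes. Intervals lay below 1 for 17 and 21 genes, against 30.4 and 22.2% of all genes. They lay above 1 for 6 and 6 genes, against 13.97 and 26.3%. In resting cells 0 genes were at least 1.5-fold higher in 3′RR-*BCL2* or Igκ-*BCL2* than in WT, against 3.6 and 7.51% of all genes, and 0 and 1 were lower, against 3.75 and 4.05%. The 1 gene was *Myc* in Igκ-*BCL2* cells, at 0.656 [0.631 to 0.682] of WT, and with stages called in cells thinned to 4000 UMIs 0 genes were lower in the Igκ-*BCL2* library and 1 in the 3′RR-*BCL2* library. *Nme1* (0.777), *Cad* (0.792) and *Nme2* (0.797) came next to *Myc* in the Igκ-*BCL2* library. *Myc* was at 0.725 [0.624 to 0.841] of WT in activated, 0.516 [0.343 to 0.792] in GC non-dividing and 0.457 [0.190 to 0.992] in GC dividing Igκ-*BCL2* cells. *Odc1* was the highest of the list in resting 3′RR-*BCL2* cells and second in Igκ-*BCL2* cells, at 1.26 and 1.28 of WT. In activated cells 33 of 35 and 28 of 36 genes were below WT in the 3′RR-*BCL2* and Igκ-*BCL2* libraries. Above WT were 2 and 8, against 43.0 and 47.2% of all genes. The medians were −0.29 and −0.18, against −0.04 and −0.01 over all genes. At least 1.5-fold lower were 3 and 4 genes, against 5.64 and 6.39% of all genes, and 0 were higher, against 3.11 and 5.07%. *Slc7a5* and *Srm* were lowest in 3′RR-*BCL2* cells, at 0.493 [0.313 to 0.753] and 0.528 [0.382 to 0.719] of WT, while in Igκ-*BCL2* cells *Polr1b* (0.480), *Nop16* (0.602) and *Mybbp1a* (0.631) were lowest and *Ddx21*, a nucleolar helicase, was highest at 1.32.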

How the data were processed

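For each library the authors deposited a matrix of UMI counts, not normalized, made with Cell Ranger 6.1.1 on mm10 per the labels. Before any filter the barcodes of the 3′RR-*BCL2*, Igκ-*BCL2* and WT libraries held 45539172, 37433924 and 62777659 UMIs. Cells were kept, by the filters given in the methods, with 800 to 4500 genes, no more than 20000 UMIs, a mitochondrial share up to 8% and a ribosomal protein share from 10%. Cells with 2 UMIs of *Cd3* or *C1q* genes were left out. This kept 6566 of 7579, 6247 of 7034 and 9933 of 11269 barcodes of the 3′RR-*BCL2*, Igκ-*BCL2* and WT libraries. Doublets were not called. Cells were thinned to 2000 UMIs, which 165, 135 and 178 kept cells lacked, and staged by the number of markers with a UMI: plasma 5 of 13 with *Jchain* and under 3 GC markers, GC 3 of 11 (2 in dividing cells), dividing 2 of 12, transitional 2 of 8, activated 5 of 17, resting 1 of 8. Dividing cells outside GCs, interferon and marginal zone cells were set apart. Counts were summed per stage and library. Ratios have exact conditional intervals for Poisson counts; summary medians add 0.5 UMI, and percentages called cover genes with at least 50 UMIs. The members and lists were chosen with earlier results of these data known, and marker minimums after the counts and member levels were seen. Genes named are, by a set rule, among the 8 highest and 4 lowest of a comparison or stand for a role. The calculations, checked on simulated data, used Python 3.11.15, scipy 1.17.1 and pandas 2.3.3.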

Additional observations from a re-analysis of the deposited data

Results flagged for a closer look

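*Cad*, activated over resting cells, was 1.99 in the Igκ-*BCL2* library and 0.489 in the 3′RR-*BCL2* library, from 16 and 8 UMIs in activated cells, with both intervals clear of 1 on opposite sides. *Mif*, plasma over resting cells, was 1.69 in the 3′RR-*BCL2* library and 0.563 in the Igκ-*BCL2* library, from 73 and 34 UMIs in 10 and 20 plasma cells. The difference between libraries was not tested in either case.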

How the results depend on the processing

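No paired analysis was possible because each genotype had 1 library. Of 253 recomputed results 206 kept their value within 1.5 times or within counting error, 46 moved and 1 changed direction, and the cause was not tested. Values are in the order 3′RR-*BCL2*, Igκ-*BCL2*, WT unless named. With 1 marker more, counts at 2-fold over resting cells were 4, 1 and 1 in transitional and 5, 4 and 9 in activated cells, 0 in Igκ-*BCL2* and 5 in WT GC non-dividing and 4 in WT GC dividing cells, and Igκ-*BCL2* over WT had 2 lower genes in activated and 2 in GC dividing cells. With stages called in cells thinned to 4000 UMIs they were 0, 0 and 1 in activated and 2, 2 and 8 in plasma cells, 0 in Igκ-*BCL2* GC non-dividing and 2 in its GC dividing cells. There, 3′RR-*BCL2* over WT had 1 lower gene in resting and 1 higher in GC non-dividing cells, Igκ-*BCL2* over WT had 0 lower in resting, 2 lower in activated, 1 higher in GC non-dividing and 14 lower in GC dividing cells, 0% of 3′RR-*BCL2* GC non-dividing and 0% of WT GC dividing cells exceeded the 99th percentile, and the ratio of the sum by *Myc* UMI was 1.47 in WT activated cells. With the looser filter the counts were 0 in 3′RR-*BCL2* and 1 in WT GC non-dividing cells and 11 and 23 in their GC dividing cells, and Igκ-*BCL2* over WT had 1 higher gene in GC non-dividing and 23 lower in GC dividing cells. Totals without immunoglobulin, ribosomal protein and mitochondrial genes gave 11, 6 and 8 in plasma cells, where they raise the ratio of every gene alike. A minimum of 20 UMIs gave 1 higher gene in 3′RR-*BCL2* GC dividing and 1 in Igκ-*BCL2* GC non-dividing cells over WT. Thinned to 1000 UMIs, the ratio by *Myc* UMI was 0.555 in Igκ-*BCL2* GC non-dividing and 0.636 in WT GC dividing cells, and no value could be had in Igκ-*BCL2* GC dividing cells. Chosen after seeing the data, leaving out cells above the 99th percentile gave 0 and 0 in *BCL2* activated, 5 in WT GC non-dividing and 6 in WT GC dividing cells and 4 and 2 lower genes in GC dividing cells of the *BCL2* libraries over WT, and GC non-dividing cells with 0 dividing markers gave 0 in 3′RR-*BCL2*. The 13 and 15 lower genes in GC non-dividing *BCL2* cells ranged from 9 to 17 and from 12 to 18 over all alternatives. WT GC non-dividing, GC dividing and plasma values rest on 39, 40 and 5 cells, and a gene under 50 UMIs in a comparison was not counted.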
